A study of Homo sapiens with 15 samples.

Results

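The nuclear genes of the respiratory chain and of ATP synthase were followed in A549, a human lung adenocarcinoma cell line, across 5 culture conditions. A gene was taken when its current or former symbol in the array's probe table began with NDUFA, NDUFB, NDUFC, NDUFS, NDUFV, SDHA to SDHD, UQCR, ATP5 or COX4 to COX8, or was CYC1. From these, 10 assembly factors and 2 pseudogenes were dropped, which left 87 of 18377 genes. Of the 87, 81 encode subunits of the 5 complexes, namely 34 of complex I, 3 of complex II, 8 of complex III, 19 of complex IV and 17 of complex V. ATP5IF1 encodes the inhibitor protein of ATP synthase and was counted with complex V, which brought that group to 18. The other 5 met the rule by their symbols alone: DMAC2, DMAC2L and EMC8 through former symbols, the non-coding NDUFV1-DT, and ERVH48-1, a protein-coding gene formerly named as an antisense transcript of NDUFV3. Symbols are current, so COXFA4 and COXFA4L2 are the genes long known as NDUFA4 and NDUFA4L2. SDHB and UQCRFS1 were not analysed here, and NDUFS5, NDUFC2 and ATP5F1E shared their probe sets with other genes and were not counted.

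Each condition held 3 arrays, 1 per culture. In 3 conditions the cells received 10 µM of BB2-125, BB2-162 or BB2-282 and were then made hypoxic, and another condition was hypoxic with vehicle. The last condition was normoxic with vehicle. All cultures carried 0.1% DMSO, and hypoxia was produced in a gas-consuming pouch for 42 h, starting 6 h after compound or vehicle was added. The title of the study calls the compounds modulators of signalling by hypoxia-inducible factor (HIF), the transcription factor of the oxygen response. No compound was measured in normoxia, so an effect on the response to hypoxia and an effect of the compound alone cannot be told apart.

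Complexes I to IV of the inner mitochondrial membrane pass electrons from NADH and succinate through ubiquinone and cytochrome c to oxygen, and complexes I, III and IV pump protons as they do so. ATP synthase, also called complex V, lets the protons flow back through a rotating ring and makes ATP. Complex II is made from nuclear genes alone, whereas the other complexes combine nuclear subunits with subunits encoded in mitochondrial DNA. In hypoxia, HIF is known to slow the entry of pyruvate into the citric acid cycle, to exchange subunit isoforms of complex IV and to induce COXFA4L2 in several cell types.

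Sequences upstream of the start sites are shown because many of these genes moved together between BB2-125 and BB2-282. RefSeq promoters (GRCh38.p14) were matched for 72 of the 87 genes, and the 250 bases before each start were searched on both strands for 5 words. GCATGCGC, the core of the word bound by nuclear respiratory factor 1 (NRF1), stood in 11 of the 72 (15.3%), against 3.7% of 15843 promoters of protein-coding genes and 2.8% of all 27305 promoters. The same core preceded by GC, which is a subset of the first, stood in 3 (4.2%), against 1.5% and 1.1%. CCGGAAG, the word of ETS factors such as GABPA, stood in 17 (23.6%), against 11.8% and 8.8%, and AAGATGGCG, the word of YY1, stood in 1 (1.4%), against 0.8% and 0.6%. ACGTG, a form of the core of the element bound by HIF, stood in 15 (20.8%). That was the same share as in promoters of protein-coding genes (20.8%) and near that in all promoters (18.7%). Other forms of this core were not searched, and the HIF core below means ACGTG alone. A match is a description of the letters and no evidence of binding. The 200 bases before the start are printed for 4 genes that differed between BB2-125 and BB2-282 and that carry 1 or more of the words. The words are in capitals on either strand.
COX5B (chr2:97645862-97646061, strand plus): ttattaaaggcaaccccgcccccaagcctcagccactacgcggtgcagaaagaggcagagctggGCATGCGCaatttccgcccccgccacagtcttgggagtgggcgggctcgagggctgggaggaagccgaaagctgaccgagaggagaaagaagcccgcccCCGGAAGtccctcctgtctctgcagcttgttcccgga
COX6A1 (chr12:120437913-120438112, strand plus): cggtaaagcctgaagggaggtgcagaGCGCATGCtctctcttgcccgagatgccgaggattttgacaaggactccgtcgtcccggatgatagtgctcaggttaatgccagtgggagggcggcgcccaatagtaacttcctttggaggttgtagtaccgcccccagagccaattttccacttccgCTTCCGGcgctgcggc
NDUFA12 (chr12:95003698-95003897, strand minus): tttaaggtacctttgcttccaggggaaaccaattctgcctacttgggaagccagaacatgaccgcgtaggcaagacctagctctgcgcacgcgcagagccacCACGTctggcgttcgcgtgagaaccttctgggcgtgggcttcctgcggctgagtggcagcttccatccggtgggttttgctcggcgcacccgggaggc
NDUFB7 (chr19:14572067-14572266, strand minus): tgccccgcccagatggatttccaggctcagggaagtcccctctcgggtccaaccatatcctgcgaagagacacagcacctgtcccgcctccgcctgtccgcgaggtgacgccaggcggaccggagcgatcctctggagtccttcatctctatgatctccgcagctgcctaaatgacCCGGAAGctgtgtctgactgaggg
COX5B carried the NRF1 core and, further downstream, the ETS word. COX6A1 carried both words on the opposite strand. NDUFA12 carried the HIF core on the opposite strand, and NDUFB7 carried the ETS word. The NRF1 core stood in 8 of 50 genes that were higher with BB2-125 than with BB2-282 (16%) and in 3 of 21 that were not called (14.3%). The ETS word stood in 14 of the 50 (28.0%) and in 3 of the 21 (14.3%), and the HIF core in 10 (20%) and 5 (23.8%). In hypoxic against normoxic vehicle the HIF core stood in 4 of 10 genes that rose (40%) and in 4 of 27 that fell (14.8%). Among those not called there it stood in 7 of 34 (20.6%). Differences between these shares were not tested.

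Signal is given as log2 of the array intensity, so that a difference of 1 is a doubling. Differences are followed by their standard error (SE), and a gene was called when its limma p-value, adjusted by Benjamini-Hochberg over all 16005 genes tested, was under 0.05. Of the 87 genes, 86 exceeded the filter on dim probe sets; COX7B2, an isoform of testis, did not. Most had bright probe sets, with a median at the 89.4th percentile of all genes tested, and 62 lay above the 75th percentile. Signal also depends on the probes, so levels are not compared between genes. Array normalization fixes the total signal, so fewer cells and less RNA per cell cannot be told apart from one another and are not measured here. Many of these genes have near-identical pseudogenes, and their part in the signal of a probe set was not tested.

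Across the 15 arrays the median intensity ran from 74.91 to 84.6. The first BB2-162 array differed most from the others of its condition (root mean square over all genes 0.221 log2 units, where no other array exceeded 0.163), and results that rest on it are also given without it. All 5 epithelial markers passed the filter, with array means of 9.49 to 10.4 over the list. Of 5 markers each, 3 of fibroblasts, 2 of leukocytes and 5 of endothelium passed, with array means of 6.69 to 7.15, 5.59 to 6.11 and 4.88 to 5.34. In hypoxic against normoxic vehicle 4 of the epithelial markers fell, CDH1 (-1.53) and EPCAM (-1.32) among them, where 29.4% of all genes fell. KRT19 rose (1.42), as did the endothelial marker CDH5 (0.26), where 28.2% of all genes rose. Against hypoxic vehicle KRT8 rose with BB2-125 (0.35) and fell with BB2-282 (-0.35), KRT19 (-0.43) and CDH1 (-0.47) fell with BB2-162, CD3E rose with BB2-125 (0.44) and BB2-162 (0.37), and COL1A1 rose with BB2-162 (0.33) and BB2-282 (0.35). With BB2-125, 3 of 5 epithelial markers were higher than with BB2-282, where 18.7% of all genes were. Of the 5 endothelial markers, 3, 4 and 2 were higher than in normoxic vehicle with BB2-125, BB2-162 and BB2-282. Over all genes these shares were 31.5%, 42.4% and 33.4%. The part of these markers in the results below was not tested.

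Hypoxia with vehicle was set against normoxia with vehicle to ask what low oxygen did to the transcripts of each complex. Of the 86 genes, 34 fell and 11 rose, where 29.4% and 28.2% of all genes tested fell and rose. Their median change was -0.19, against 0.09 over all genes. Arrays of the groups did not overlap for 50 genes, where 64.6% of all genes did not overlap. Falls made up most of the calls in complexes I, II, III and V, and rises most of those in complex IV. In complex I 18 of 34 fell and 2 rose, with a median of -0.37. All 3 genes of complex II fell on the probe sets used, although SDHD was not called on its second. In complex III 3 of 8 fell and 1 rose, in complex V 7 of 18 fell and 1 rose, and in complex IV 7 of 18 tested rose and 1 fell, with a median of 0.27. The count of rises depended on single arrays: it was 7 without normoxic vehicle replicate 2, 5 without normoxic vehicle replicate 3, and 4 without hypoxic vehicle replicate 1 or replicate 3. The count of falls stayed between 27 and 33 when any 1 array was left out.

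**Figure D1:**
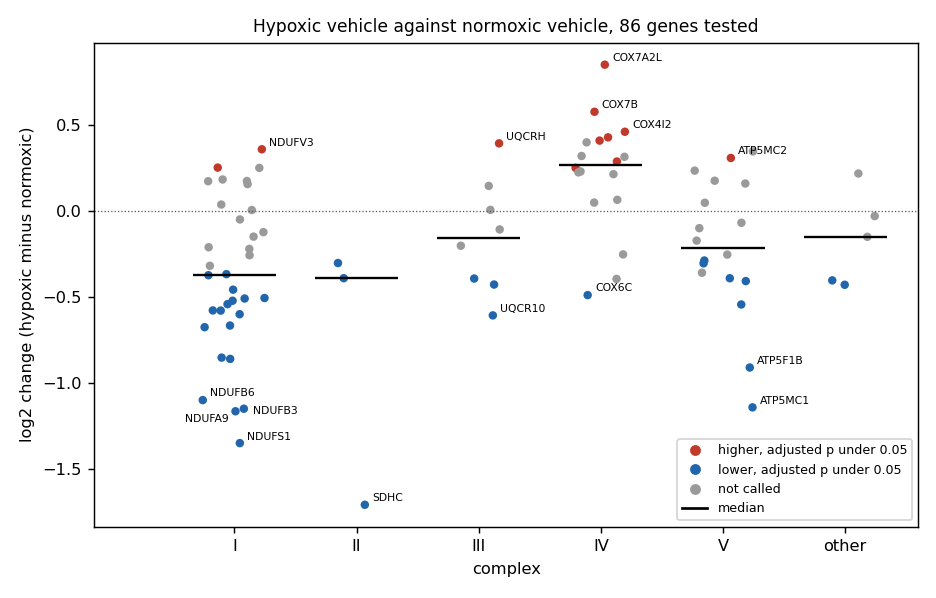
Log2 change in hypoxic vehicle against normoxic vehicle for each of the 86 genes tested (y axis), grouped by complex (x axis; "other" holds 5 genes that met the rule by symbol alone, and the inhibitor ATP5IF1 is under complex V), with 3 arrays per group. Each point is 1 gene, red or blue where called and grey where not, and bars are medians; complex I lies mostly below 0 (18 of 34 called lower) and complex IV mostly above (7 of 18 called higher).

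The core of complex I holds the cofactors that carry electrons from NADH to ubiquinone. NDUFS1, its largest iron-sulfur subunit, gave 7.92, 7.82 and 7.92 in hypoxic vehicle, against 9.18, 9.29 and 9.23 in normoxic vehicle. The hypoxic arrays all lay more than 1 unit below the normoxic ones, and NDUFS1 fell by 1.35 ± 0.10 (adjusted p = 2.29e-09). In all, 5 of the 6 core genes measured here fell. NDUFS7, a further iron-sulfur subunit, changed by 0.16 and was not called.

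Accessory subunits surround the core and are needed for assembly or stability. NDUFA9, where the arms of the complex join, gave 8.94, 8.64 and 8.80 in hypoxic vehicle, against 9.95, 10.02 and 9.90 in normoxic vehicle. NDUFB3, of the membrane arm, gave 7.02, 7.06 and 6.65 in hypoxic vehicle, against 8.13, 8.16 and 7.89 in normoxic vehicle. The groups did not overlap for either gene; NDUFA9 fell by 1.16 ± 0.10 (adjusted p = 5.91e-09) and NDUFB3 by 1.15 ± 0.17 (adjusted p = 8.58e-06). NDUFB8, another membrane arm subunit, fell by 0.85 ± 0.11 (adjusted p = 2.52e-06). Of the 13 accessory NDUFA genes (with NDUFAB1, the mitochondrial acyl carrier protein), 7 fell and 1 rose, and of the 12 accessory NDUFB and NDUFC genes 5 fell. NDUFB5 was not called, with 10.24, 10.20 and 9.86 in hypoxic vehicle and 10.06, 10.13 and 10.00 in normoxic vehicle (0.04 ± 0.13, adjusted p = 0.804). The 2 rises were small: NDUFV3, a small subunit next to the NADH site, rose by 0.36 ± 0.10 (adjusted p = 0.00348) and NDUFA10 by 0.25 ± 0.10 (adjusted p = 0.038). The call of NDUFA10 ended after median centring (0.22, adjusted p = 0.0823), in a fit of these 2 groups alone (adjusted p = 0.063), and without normoxic vehicle replicate 1 or 3 or hypoxic vehicle replicate 1 or 3 (adjusted p = 0.0711 to 0.152).

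Complex II, succinate dehydrogenase, links the citric acid cycle to the chain. SDHC, which encodes one of its membrane anchors, gave 9.78, 9.88 and 9.55 in hypoxic vehicle, against 11.57, 11.33 and 11.43 in normoxic vehicle. No hypoxic array came within 1 unit of a normoxic one. The fall of SDHC, 1.71 ± 0.13 or 3.27-fold (adjusted p = 1.4e-09), was the largest of the 86 genes in this comparison, and its second, dimmer probe set changed by -1.46. SDHD, the other anchor, fell by 0.39 ± 0.10 (adjusted p = 0.00259), although its second probe set changed by -0.21 and was not called (adjusted p = 0.096). The probe set used for SDHC, a gene of chromosome 1, is numbered among those of chromosome 17 genes. That used for SDHD, a gene of chromosome 11, is numbered next to those of chromosome 1 genes. Likewise, the probe set used for NDUFV2, a gene of chromosome 18, is numbered among those of chromosome 19 genes. That used for ATP5MK, a gene of chromosome 10, is numbered near that of a chromosome X gene. Whether these probe sets read the genes themselves or pseudogenes elsewhere was not tested. SDHA, the flavoprotein that oxidises succinate, fell by 0.30 ± 0.12 (adjusted p = 0.0347). That call ended after quantile normalization (-0.23, adjusted p = 0.0785) and without normoxic vehicle replicate 2 or 3 or hypoxic vehicle replicate 2 or 3 (adjusted p = 0.0745 to 0.146).

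Complex III passes electrons from ubiquinol to cytochrome c. CYC1, which encodes cytochrome c1, the subunit that hands over the electron, gave 10.47, 10.26 and 10.31 in hypoxic vehicle, against 10.79, 10.84 and 10.68 in normoxic vehicle, and fell by 0.43 ± 0.10 (adjusted p = 0.00119). UQCR10, a small membrane subunit, gave 9.77, 9.48 and 9.72 in hypoxic vehicle, against 10.32, 10.33 and 10.14 in normoxic vehicle. It fell by 0.61 ± 0.12 (adjusted p = 0.000188). Neither core protein gene, UQCRC1 or UQCRC2, was called. UQCRQ fell by 0.39 ± 0.16 (adjusted p = 0.044) and UQCRH, the hinge protein, rose by 0.39 ± 0.17 (adjusted p = 0.0493). Both calls ended after quantile normalization (adjusted p = 0.118 and 0.0613), in a fit with replicate numbers blocked (0.0555 and 0.0581) and without any of several single arrays (up to 0.212 and 0.177).

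Complex IV, cytochrome c oxidase, reduces oxygen to water, and several of its nuclear subunits come in isoform pairs of which one is restricted to a tissue or induced by a condition. COX7A2L, which encodes a factor that joins complexes III and IV into supercomplexes, gave 10.75, 10.57 and 10.71 in hypoxic vehicle, against 10.10, 9.73 and 9.65 in normoxic vehicle. The hypoxic arrays all lay above the normoxic ones, and COX7A2L rose by 0.85 ± 0.12, or 1.80-fold (adjusted p = 5.22e-06). COX4I2, the isoform of subunit 4 known to be induced by HIF, gave 6.23, 6.44 and 6.50 in hypoxic vehicle, against 6.04, 5.79 and 5.96 in normoxic vehicle. It rose by 0.46 ± 0.13 (adjusted p = 0.00684), while COX4I1, the common isoform, changed by 0.07 ± 0.09 (adjusted p = 0.541). In the same way COX6A2, the isoform of muscle, rose by 0.41 ± 0.15 (adjusted p = 0.0236), and COX6A1 changed by 0.05 ± 0.09 (adjusted p = 0.655). COXFA4L2 rose by 0.29 ± 0.11 (adjusted p = 0.0348), and COXFA4 changed by -0.39 ± 0.17 (adjusted p = 0.0502). Differences between the 2 genes of a pair were not tested. The probe sets of COX4I2 and COXFA4L2 were dim, at the 30.2nd and 36.3rd percentiles of all genes tested.

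Of the other isoforms, COX7B rose by 0.58 ± 0.22 (adjusted p = 0.0317) and COX7C by 0.43 ± 0.16 (adjusted p = 0.0254). COX7A2 changed by 0.40 ± 0.20 (adjusted p = 0.0888), COX7A1, the isoform of muscle, by 0.32 ± 0.15 (adjusted p = 0.0721), and COX8A by 0.32 ± 0.16 (adjusted p = 0.088). COX6B1 and COX6B2 changed by 0.23 and 0.22, and COX8C, whose normoxic mean lay at or below the filter level, by 0.23; none of these was called. The single fall was that of COX6C (-0.49 ± 0.20, adjusted p = 0.0426). Among the calls named here, those of COX6A2, COX7B, COX7C, COXFA4L2 and COX6C each ended when 1 array was left out, with adjusted p-values up to 0.154, 0.156, 0.15, 0.157 and 0.163, for COXFA4L2 and COX6C without any of 5 of the 6 arrays. The call of COX6C also ended after quantile normalization (adjusted p = 0.109), with replicate numbers blocked (0.0573) and with adjustment over all 10 comparisons (0.0531).

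ATP synthase has a catalytic head, F1, whose turning is driven by a ring of c subunits, and a peripheral stalk that holds the head still. ATP5MC1, 1 of 3 genes for the same mature c subunit, gave 11.68, 11.59 and 11.45 in hypoxic vehicle, against 12.73, 12.68 and 12.74 in normoxic vehicle. It fell by 1.14 ± 0.12 (adjusted p = 9.78e-08). ATP5MC2, another of the 3, rose by 0.31 ± 0.09 (adjusted p = 0.00743). ATP5F1B, the catalytic beta subunit, gave 11.48, 11.64 and 11.39 in hypoxic vehicle, against 12.36, 12.54 and 12.34 in normoxic vehicle, without overlap. ATP5F1B fell by 0.91 ± 0.11 (adjusted p = 1.11e-06), ATP5MF of the membrane part by 0.54 ± 0.16 (adjusted p = 0.00721) and ATP5PF of the stalk by 0.41 ± 0.10 (adjusted p = 0.00214). ATP5IF1, the inhibitor that stops the enzyme from running backwards, changed by -0.36 ± 0.16 (adjusted p = 0.0662).

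The compounds were then set against hypoxic vehicle to ask how each changed these transcripts in hypoxia. The 3 comparisons share the hypoxic vehicle arrays, so their counts and values are given side by side. With BB2-125, 29 of the 86 genes rose, where 13.3% of all genes rose, and limma called 0 lower, where 15% of all genes fell (28.4% were called in either direction); at an unadjusted p under 0.05, 33 were higher and 1 lower. The median change was 0.21, against 0.02 over all genes. With BB2-282, 31 fell, where 7.94% of all genes fell, and limma called 0 higher, where 5.65% rose; at an unadjusted p under 0.05, 41 were lower and 1 higher. The median was -0.25, against 0.02 over all genes. With BB2-162, 8 rose and 11 fell, where 15.7% and 20.4% of all genes rose and fell, with a median of -0.02 against 0.06. Arrays did not overlap with those of hypoxic vehicle for 38, 18 and 45 genes with BB2-125, BB2-162 and BB2-282, where this held for 41.3%, 40.3% and 31.4% of all genes.

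**Figure D2:**
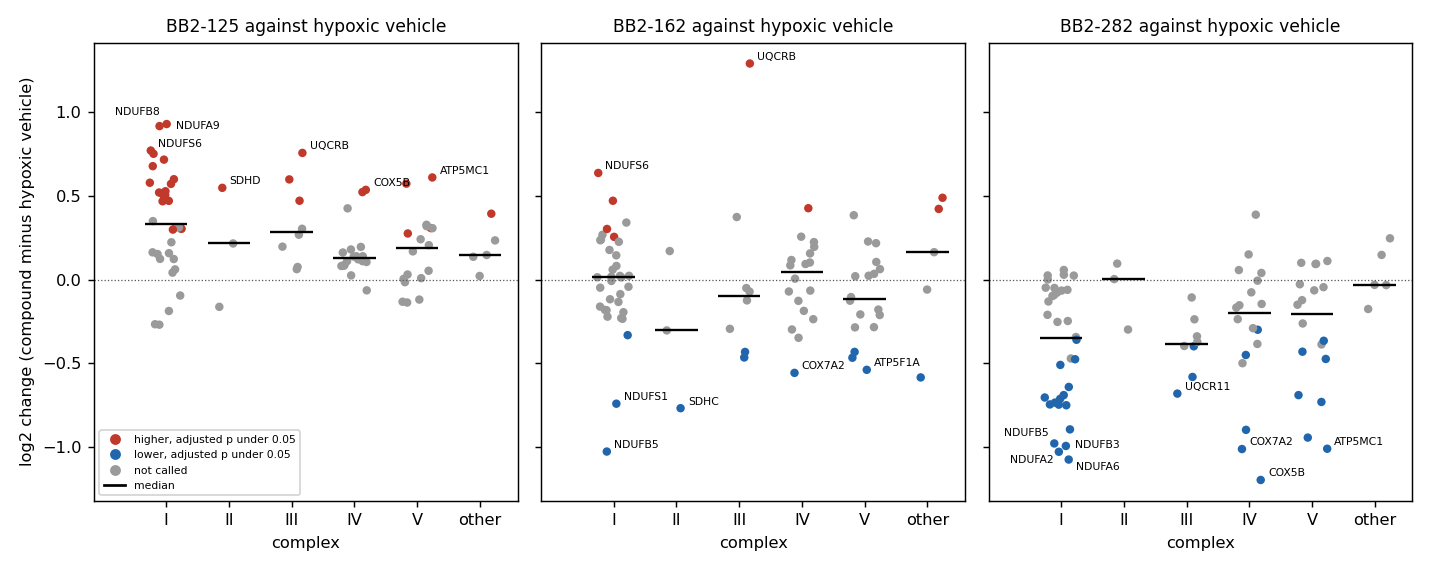
Log2 change against hypoxic vehicle (y axis) for each of the 86 genes tested, by complex (x axis), with 1 panel for each compound and 3 arrays per group. Points are genes, red or blue where called and grey where not, and bars are medians; called genes lie above 0 with BB2-125 (29), on both sides with BB2-162 (8 and 11) and below 0 with BB2-282 (31).

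Deviations of each array from the gene means show the same sets array by array. The median deviation over the 86 genes was 0.38, 0.11 and 0.24 on the BB2-125 arrays, -0.12, 0.13 and -0.13 on the BB2-162 arrays, -0.27, -0.32 and -0.31 on the BB2-282 arrays, 0.02, -0.08 and -0.0029 on the hypoxic vehicle arrays and 0.23, 0.18 and 0.03 on the normoxic vehicle arrays. The BB2-282 arrays were the 3 lowest of the 15, and the BB2-125 arrays lay above all hypoxic vehicle arrays. BB2-125 replicate 1 was the highest array, and the count of rises with BB2-125 was 13 without it and 18 without hypoxic vehicle replicate 2. The count of falls with BB2-282 stayed between 23 and 29 when any 1 array was left out.

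**Figure D3:**
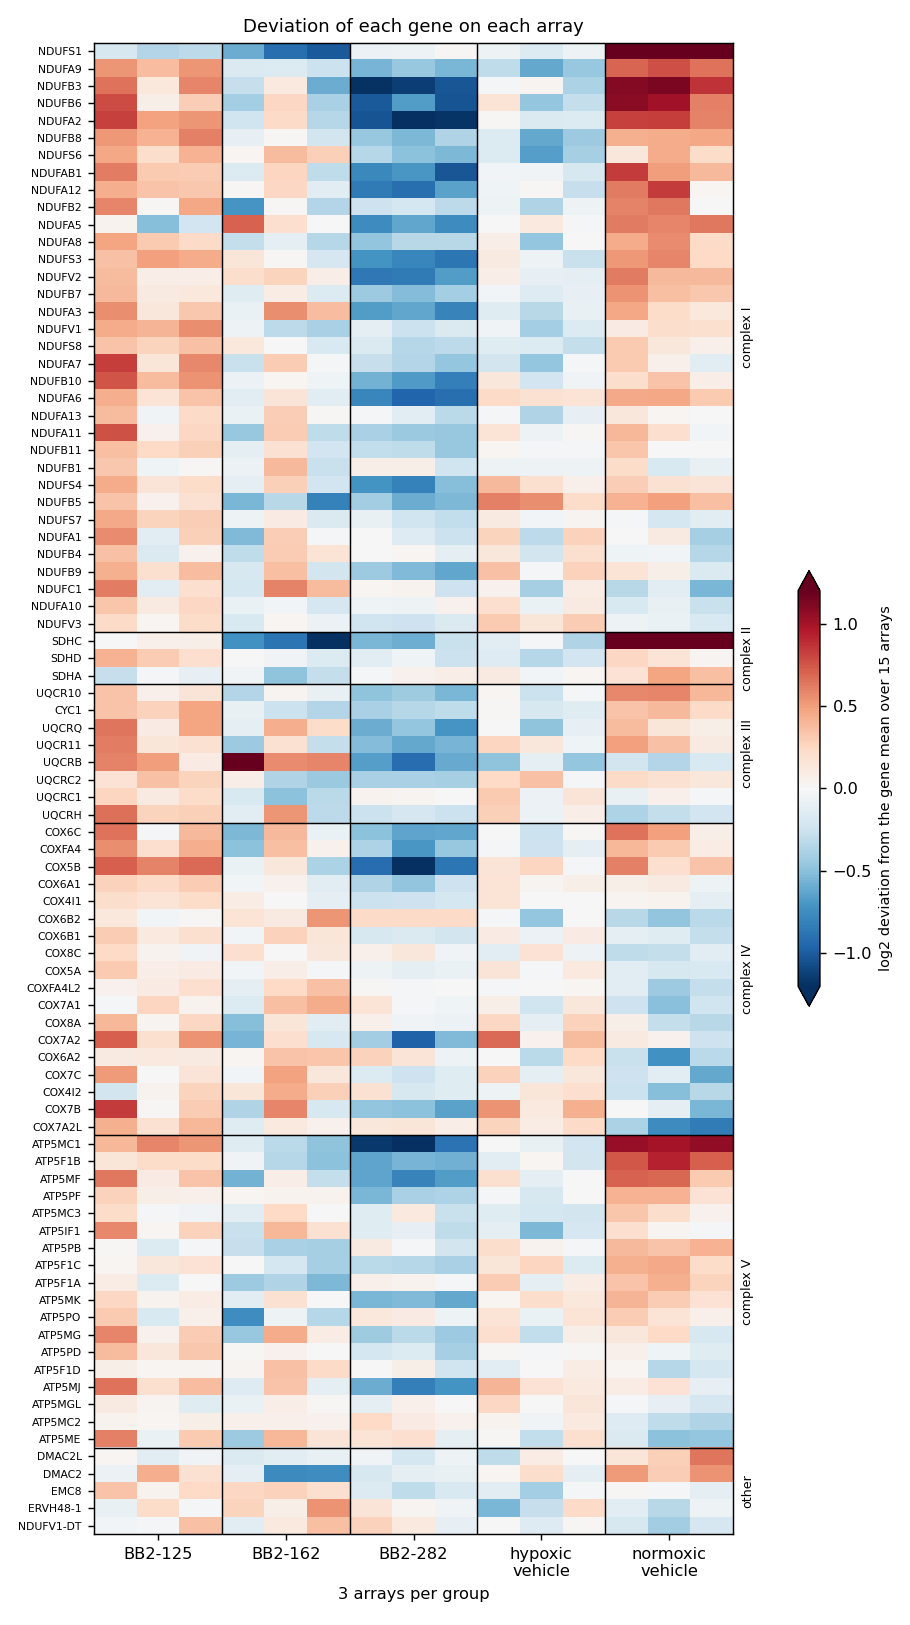
Deviation of each of the 86 genes from its own mean over the 15 arrays (colour, log2 units, saturated beyond the ends of the scale), with genes in rows by complex and, within a complex, from the largest fall to the largest rise in hypoxia, and arrays in columns by group. The median deviation over the genes was lowest on the 3 BB2-282 arrays (-0.27 to -0.32) and highest on BB2-125 replicate 1 (0.38).

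Complex I held most of the genes raised by BB2-125, with 18 of 34. NDUFA9 gave 9.78, 9.62 and 9.78 with BB2-125, against the 8.94, 8.64 and 8.80 of hypoxic vehicle given above. NDUFB8 gave 10.84, 10.73 and 10.92 with BB2-125, against 10.15, 9.70 and 9.88 in hypoxic vehicle. Neither gene's groups overlapped; NDUFA9 rose by 0.93 ± 0.10 (adjusted p = 8.11e-07) and NDUFB8 by 0.92 ± 0.11 (adjusted p = 4.97e-06). NDUFV1, which binds NADH, rose by 0.68 ± 0.11 (adjusted p = 0.000116), and NDUFS6, an accessory subunit of the peripheral arm, by 0.77 ± 0.13 (adjusted p = 0.000195). Set against normoxic vehicle, NDUFB8 with BB2-125 differed by 0.07 ± 0.11 (95% interval -0.17 to 0.30) and NDUFA9 by -0.23 ± 0.10 (adjusted p = 0.0426). NDUFS1 stayed low, with 7.79, 7.63 and 7.67 under BB2-125, a change of -0.19 ± 0.10 against hypoxic vehicle (adjusted p = 0.212).

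Outside complex I, BB2-125 raised SDHD, CYC1 and COX5B among others. COX5B, a zinc-binding subunit of complex IV, gave 12.17, 12.05 and 12.13 with BB2-125, against 11.60, 11.70 and 11.43 in hypoxic vehicle. It rose by 0.54 ± 0.15 (adjusted p = 0.0117), a call that ended without hypoxic vehicle replicate 3 (0.46, adjusted p = 0.0548). SDHD rose by 0.55 ± 0.10 (adjusted p = 0.000327) and CYC1 by 0.47 ± 0.10 (adjusted p = 0.00121), whereas SDHC changed by 0.22 ± 0.13 (adjusted p = 0.239). ATP5MC1 gave 12.09, 12.27 and 12.21 with BB2-125, against 11.68, 11.59 and 11.45 in hypoxic vehicle, and rose by 0.61 ± 0.12 (adjusted p = 0.000505). Of complex IV, 2 of 18 rose, COX5B and COXFA4 (0.52 ± 0.17, adjusted p = 0.023). The call of COXFA4 ended without BB2-125 replicate 1 or 3 or hypoxic vehicle replicate 2 (adjusted p = 0.069 to 0.0974). ATP5IF1 rose by 0.57 ± 0.16 (adjusted p = 0.0113), a call that ended without BB2-125 replicate 1 (adjusted p = 0.0758) or hypoxic vehicle replicate 2 (adjusted p = 0.071).

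BB2-282 lowered genes of 4 complexes: 16 of 34 in complex I, 3 of 8 in complex III, 5 of 18 in complex IV and 7 of 18 in complex V. No gene of complex II was called, although SDHC changed by -0.30 on the probe set used and by -0.58 on its second. COX5B gave 10.54, 10.03 and 10.58 with BB2-282, against 11.60, 11.70 and 11.43 in hypoxic vehicle. Every vehicle array lay above every BB2-282 array, and COX5B fell by 1.20 ± 0.15, or 2.29-fold (adjusted p = 4.33e-05). NDUFA6, an accessory subunit of the LYR protein family, gave 9.54, 9.38 and 9.42 with BB2-282, against 10.56, 10.51 and 10.49 in hypoxic vehicle. NDUFB5, of the membrane arm, gave 9.22, 9.05 and 9.10 with BB2-282, against 10.24, 10.20 and 9.86 in hypoxic vehicle. Groups were apart for both; NDUFA6 fell by 1.07 ± 0.10 (adjusted p = 2.88e-06) and NDUFB5 by 0.98 ± 0.13 (adjusted p = 5.16e-05). ATP5MC1 gave 10.53, 10.38 and 10.80 with BB2-282 and fell by 1.01 ± 0.12 (adjusted p = 1.72e-05). COX7A2 fell by 1.01 ± 0.20 (adjusted p = 0.0019) and COX7B by 0.90 ± 0.22 (adjusted p = 0.0102), while COX7A2L changed by -0.08 ± 0.12 (adjusted p = 0.779). The call of COX7B ended without hypoxic vehicle replicate 1 (adjusted p = 0.0592).

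Complex IV isoforms of restricted expression were not called with BB2-282: COX4I2 changed by -0.14 ± 0.13, COX6A2 by 0.15 ± 0.15, COXFA4L2 by -0.01 ± 0.11, COX7A1 by 0.04 ± 0.15 and COX8C by 0.06 ± 0.11. COX6B2, an isoform of testis, changed by 0.39 ± 0.13 (adjusted p = 0.0507). Among common isoforms COX6A1 fell by 0.45 ± 0.09 (adjusted p = 0.00321) and COX4I1 by 0.30 ± 0.09 (adjusted p = 0.0348). The call of COX4I1 ended without any 1 of 5 arrays (adjusted p up to 0.174).

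BB2-162 gave changes in both directions that centred near 0. UQCRB, a small subunit of complex III, gave 8.02, 6.94 and 6.96 with BB2-162, against 5.88, 6.25 and 5.90 in hypoxic vehicle. Replicate 1 lay more than 1 unit above the other BB2-162 arrays, and all 3 lay above hypoxic vehicle. UQCRB rose by 1.29 ± 0.21 (adjusted p = 0.000139), and by 0.94 without BB2-162 replicate 1 (adjusted p = 7.6e-05). The probe set of UQCRB was dim, at the 31.9th percentile of all genes tested. NDUFS6 rose by 0.64 ± 0.13 (adjusted p = 0.00114). EMC8, a gene of the membrane protein complex of the endoplasmic reticulum that met the rule by its former symbol COX4NB, rose by 0.42 ± 0.11 (adjusted p = 0.00578), and COX6B2 by 0.43 ± 0.13 (adjusted p = 0.0149). The call of COX6B2 ended in a fit of these 2 groups alone (adjusted p = 0.0833), after quantile normalization (0.056) and without BB2-162 replicate 3 (0.0968) or hypoxic vehicle replicate 2 (0.104).

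Among the falls with BB2-162, NDUFB5 gave 9.09, 9.30 and 8.83 with BB2-162, against 10.24, 10.20 and 9.86 in hypoxic vehicle. It fell by 1.03 ± 0.13, or 2.04-fold (adjusted p = 6.64e-06). NDUFS1 gave 7.39, 7.07 and 6.97 with BB2-162, against 7.92, 7.82 and 7.92 in hypoxic vehicle, and SDHC gave 9.18, 9.03 and 8.70, against 9.78, 9.88 and 9.55. Both genes were already the lowest of their complexes in hypoxia by change, and fell further, NDUFS1 by 0.74 ± 0.10 (adjusted p = 2.66e-05) and SDHC by 0.77 ± 0.13 (adjusted p = 0.000141). ATP5F1A, the alpha subunit of the F1 head, fell by 0.54 ± 0.11 (adjusted p = 0.000902), and COX7A2 by 0.56 ± 0.20 (adjusted p = 0.0345). The call of COX7A2 ended without any 1 of 4 arrays (adjusted p up to 0.164) and in 2 of the other settings. Counts with BB2-162 moved with single arrays: 12 rose and 13 fell without replicate 1, 5 rose and 17 fell without replicate 2, 5 rose without replicate 3, and 3 rose without hypoxic vehicle replicate 2. In a fit of the 2 groups alone 3 rose and 7 fell. The share of rises among the calls was 42.1%, against 26.3% after median centring (5 of 19) and 55.6% after quantile normalization (10 of 18).

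The compounds were also set against each other at the same dose and times, in 3 pairs, none of which uses a vehicle array. BB2-125 was above BB2-282 in 58 of the 86 genes, where 18.7% of all genes were higher, and limma called 0 lower, where 17.6% of all genes were lower; at an unadjusted p under 0.05, 59 were higher and 1 lower. The median difference was 0.58, against 0.01 over all genes. Arrays of the 2 compounds did not overlap for 64 genes, where this held for 51.2% of all genes. The calls covered 28 of 34 genes of complex I, 2 of 3 of complex II, 7 of 8 of complex III, 10 of 18 of complex IV and 10 of 18 of complex V. The 10 of complex IV were all among its 11 common isoforms, and whether these differ from the 6 isoforms of restricted expression was not tested. Leaving out any 1 array gave 52 to 59 genes higher.

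NDUFA2, an accessory subunit of complex I, gave 10.11, 9.78 and 9.82 with BB2-125, against 8.26, 8.10 and 8.12 with BB2-282. Hypoxic vehicle lay between them, at 9.31, 9.12 and 9.13. The difference between the compounds was 1.75 ± 0.14, or 3.35-fold (adjusted p = 1.59e-08). COX5B differed by 1.73 ± 0.15, or 3.32-fold (adjusted p = 6.97e-08), and ATP5MC1 by 1.62 ± 0.12, or 3.08-fold (adjusted p = 5.94e-09). For both genes the BB2-125 arrays lay above hypoxic vehicle and the BB2-282 arrays below it, as the per-array values above show. NDUFA6 differed by 1.20 ± 0.10 (adjusted p = 5.95e-08), although it was not called between BB2-125 and hypoxic vehicle. Across the 86 genes, 12 were called both higher with BB2-125 and lower with BB2-282 than hypoxic vehicle (14%, against 1.79% of all genes). Both comparisons share the vehicle arrays. Whether 12 is more than the 29 rises and 31 falls alone would give was not tested.

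The 28 genes not called between BB2-125 and BB2-282 had 95% intervals between -0.46 and 0.81, so for some of them a difference as large as many of those called remains possible. NDUFS1 differed by -0.25 ± 0.10 (95% interval -0.46 to -0.03, adjusted p = 0.0759). COX7A2L differed by 0.22 ± 0.12 (-0.03 to 0.46, adjusted p = 0.176) and COX4I2 by 0.08 ± 0.13 (-0.20 to 0.36, adjusted p = 0.709). The pair ATP5MC1 and ATP5MC2, 2 genes for the same c subunit, gave differences of 1.62 and -0.09, the second not called.

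**Figure D4:**
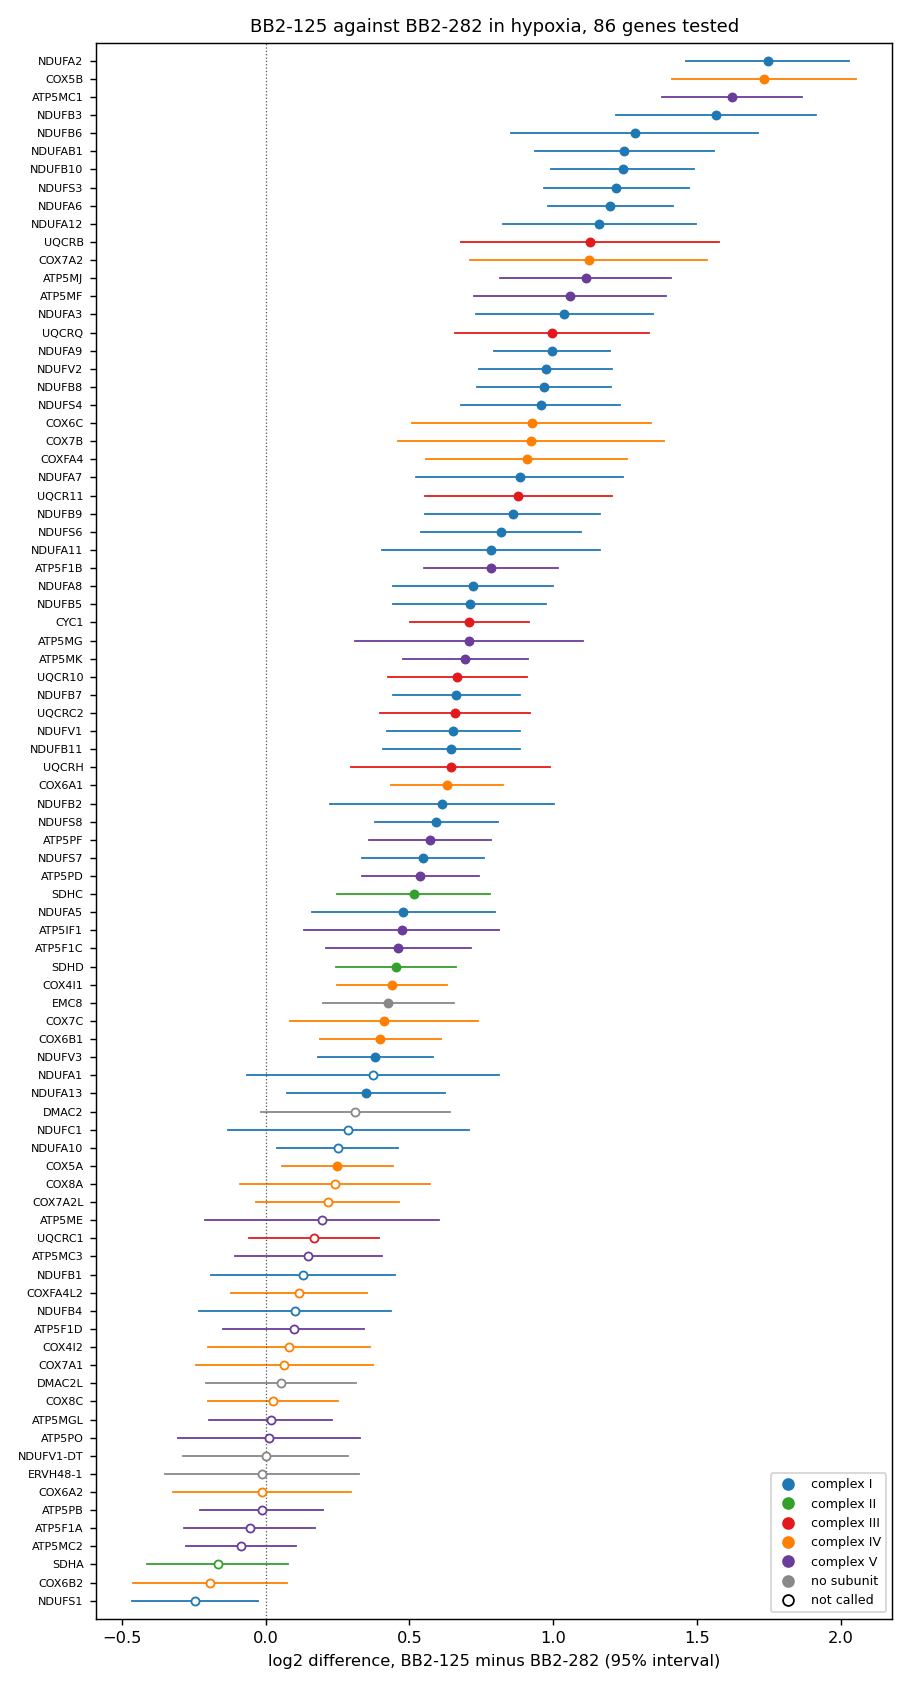
Difference in log2 signal between BB2-125 and BB2-282 (x axis), with its 95% interval, for each of the 86 genes tested, ordered by the difference and coloured by complex; filled points were called. The 58 called genes all lie above 0, up to 1.75 for NDUFA2, and the lowest point is NDUFS1 at -0.25.

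A comparison that shares no array with BB2-125 against BB2-282 is hypoxic against normoxic vehicle, so calls in both can be set together. Of the 34 genes that fell in hypoxia, 28 (82.4%) were higher with BB2-125 than with BB2-282, which is 48.3% of the 58. Over all genes tested the shares were 34.8% of those that fell in hypoxia and 54.6% of those higher with BB2-125. The 28 of 34 also stand beside 58 of all 86 genes, a high share whether or not a gene fell in hypoxia. Whether the genes that fell differ in this from the rest of the 86 was not tested. Of the others among the 58, 25 were not called in hypoxia and 5 rose. Among all 86 genes these are 29.1% and 5.8%, against 5.05% and 3.42% of all genes tested.

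BB2-125 was above BB2-162 in 38 genes and below it in 1, where 16.7% and 9.43% of all genes were higher and lower, with a median difference of 0.32; arrays did not overlap for 39 genes, where this held for 36.7% of all genes. SDHC gave 9.92, 9.97 and 9.98 with BB2-125, against 9.18, 9.03 and 8.70 with BB2-162, a difference of 0.98 ± 0.13 (adjusted p = 2.2e-05). ATP5MC1 differed by 0.82 ± 0.12 (adjusted p = 5.54e-05), NDUFV1 by 0.73 ± 0.11 (adjusted p = 0.00011) and NDUFA9 by 0.67 ± 0.10 (adjusted p = 6.12e-05). The gene that was lower, NDUFA5 of the peripheral arm of complex I, gave 6.85, 6.29 and 6.57 with BB2-125, against 7.51, 7.002 and 6.79 with BB2-162 (-0.53 ± 0.15, adjusted p = 0.0143). Its arrays overlapped, and the call ended without BB2-162 replicate 1 (-0.33, adjusted p = 0.0513), without BB2-125 replicate 2 (-0.39, adjusted p = 0.0802) and in a fit of the 2 groups alone (adjusted p = 0.0808). NDUFS6, raised by both compounds, differed by 0.13 ± 0.13 (95% interval -0.14 to 0.41, adjusted p = 0.464), and by 0.03 without BB2-162 replicate 1. UQCRB, also raised by both, differed by -0.53 ± 0.21 (-0.98 to -0.09, adjusted p = 0.0722), and by -0.18 without BB2-162 replicate 1 (adjusted p = 0.338). The count of 38 was 31 without BB2-162 replicate 1, 21 without BB2-162 replicate 3, 19 without BB2-125 replicate 1, 25 without BB2-125 replicate 3, 25 after quantile normalization and 23 in a fit of the 2 groups alone.

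BB2-162 was above BB2-282 in 33 genes and below it in 8, where 15.6% and 20.3% of all genes were higher and lower, with a median difference of 0.28. Groups did not overlap for 45 genes, where this held for 44.9% of all genes. UQCRB, whose probe set was dim, gave 8.02, 6.94 and 6.96 with BB2-162, against 5.71, 5.45 and 5.76 with BB2-282. The difference was 1.66 ± 0.21 (adjusted p = 7.88e-06), and 1.31 without BB2-162 replicate 1. NDUFA2 differed by 1.02 ± 0.14 (adjusted p = 1.09e-05), NDUFV2, an iron-sulfur subunit of the NADH site, by 0.98 ± 0.11 (adjusted p = 1.8e-06) and NDUFA6 by 0.85 ± 0.10 (adjusted p = 4.9e-06). Among the genes lower with BB2-162, NDUFS1 differed by -0.80 ± 0.10 (adjusted p = 9.22e-06) and ATP5F1A by -0.47 ± 0.11 (adjusted p = 0.00211). UQCRC1, a core protein of complex III, differed by -0.36 ± 0.11 (adjusted p = 0.0142), a call that ended without BB2-162 replicate 2 (adjusted p = 0.0791). SDHC differed by -0.47 ± 0.13 (adjusted p = 0.00734), but by -0.02 on its second probe set (adjusted p = 0.926), and the call also ended without BB2-162 replicate 3 (adjusted p = 0.0514) or BB2-282 replicate 3 (adjusted p = 0.0529). NDUFB5, lowered by both compounds, differed by -0.05 ± 0.13 (95% interval -0.31 to 0.22, adjusted p = 0.785). The count of 33 was 45 without BB2-162 replicate 1 and 21 without BB2-162 replicate 2, and the count of 8 was 3 to 5 in 5 of the fits that left out 1 array and 4 in a fit of the 2 groups alone.

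**Figure D5:**
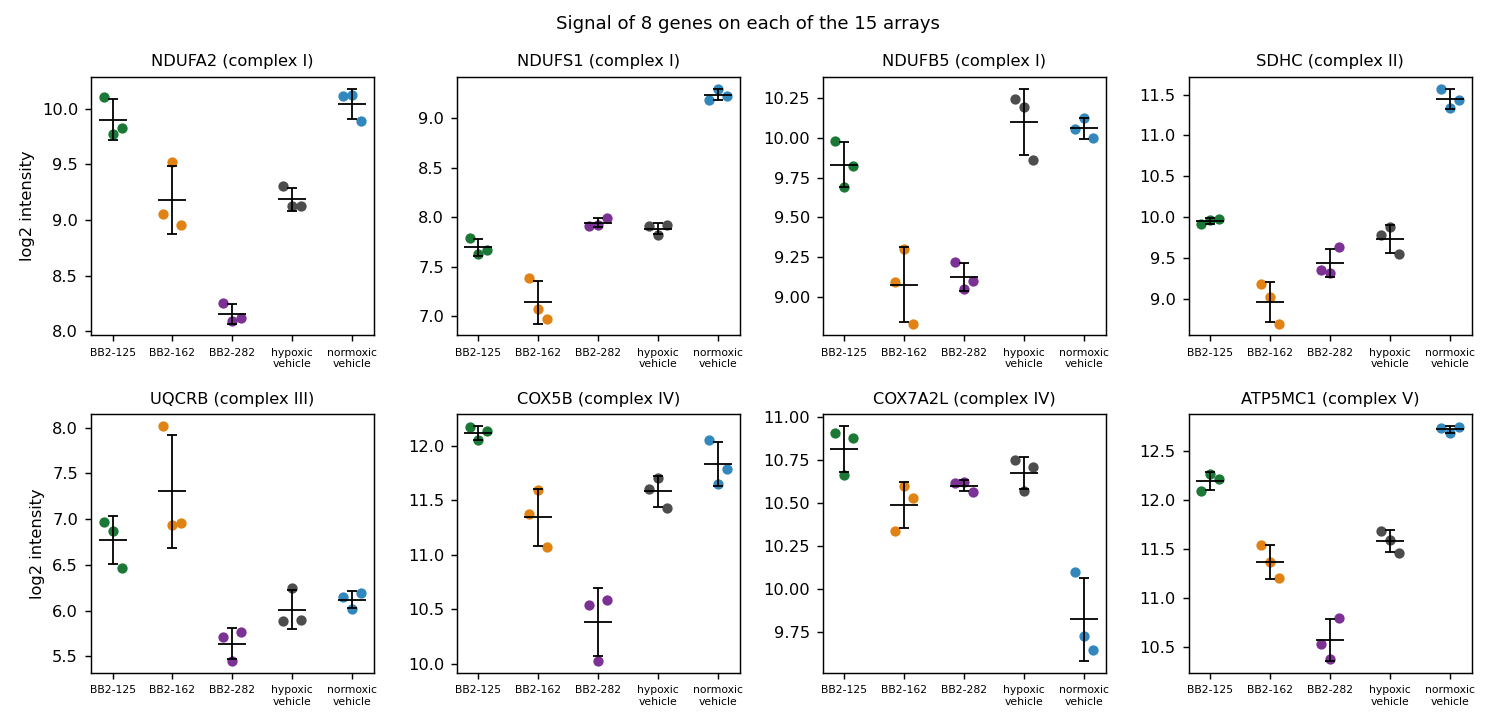
Log2 intensity of 8 genes on each of the 15 arrays (y axes, each with its own range), by group, with the mean and SD of the 3 arrays of a group. NDUFA2, COX5B and ATP5MC1 lie above hypoxic vehicle with BB2-125 and below it with BB2-282, NDUFS1 and SDHC are highest in normoxic vehicle, NDUFB5 is low with BB2-162 and BB2-282, UQCRB is high with BB2-125 and BB2-162, and COX7A2L is lowest in normoxic vehicle.

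Each compound in hypoxia was last set against normoxic vehicle. With BB2-125, 28 genes were higher and 14 lower, where 31.5% and 30.5% of all genes were, with a median of 0.15. Arrays did not overlap for 44 genes, where this held for 70.5% of all genes. After median centring the counts were 20 and 17. The count of 28 was 17 without BB2-125 replicate 1. Complex IV held 14 of the 28, COX7A2L among them (0.99 ± 0.12, adjusted p = 7.79e-07). NDUFS1 (-1.54 ± 0.10, adjusted p = 4.54e-10) and SDHC (-1.49 ± 0.13, adjusted p = 1e-08) were lower, and ATP5MC1 differed by -0.53 ± 0.12 (adjusted p = 0.000697). NDUFA2 differed by -0.14 ± 0.14 (95% interval -0.43 to 0.14, adjusted p = 0.365) and COX5B by 0.29 ± 0.15 (-0.03 to 0.61, adjusted p = 0.109).

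With BB2-162, 16 genes were higher and 36 lower than in normoxic vehicle, where 42.4% and 34.4% of all genes were (76.8% in either direction); arrays did not overlap for 49 genes, where this held for 75.2% of all genes. After median centring the counts were 11 and 45. SDHC differed by -2.47 ± 0.13 (adjusted p = 6.73e-12), NDUFS1 by -2.09 ± 0.10 (adjusted p = 4.37e-12) and ATP5F1B by -1.09 ± 0.11 (adjusted p = 8.25e-08), while UQCRB differed by 1.19 ± 0.21 (adjusted p = 8.35e-05; 0.83 without BB2-162 replicate 1) and COX4I2 by 0.66 ± 0.13 (adjusted p = 0.000282). With BB2-282, 10 genes were higher and 53 lower, where 33.4% and 31.4% of all genes were (64.8% in either direction), and complex I held 26 of the 53. Arrays did not overlap for 70 genes, where this held for 74.4% of all genes. ATP5MC1 differed by -2.15 ± 0.12 (adjusted p = 1.33e-11), NDUFB3 by -2.14 ± 0.17 (adjusted p = 1.94e-09), SDHC by -2.01 ± 0.13 (adjusted p = 1.23e-10) and NDUFA2 by -1.89 ± 0.14 (adjusted p = 6.67e-10). The genes higher with BB2-282 included COX7A2L (0.78 ± 0.12, adjusted p = 1.34e-05), COX6B2 (0.60 ± 0.13, adjusted p = 0.000459), ATP5MC2 (0.40 ± 0.09, adjusted p = 0.000818) and COX6A2 (0.56 ± 0.15, adjusted p = 0.00285). The count of 10 was 4 without normoxic vehicle replicate 2 or BB2-282 replicate 1 and 5 without BB2-282 replicate 2.

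All 6 complex IV isoforms of restricted expression that were tested were called higher than in normoxic vehicle with BB2-125, with BB2-162 and with BB2-282, and 3 of the 6 in hypoxic vehicle. Apart from COX6A2 (63.9th percentile of all genes tested), their probe sets were dim, from the 3.4th (COX8C) to the 36.3rd percentile (COXFA4L2). The normoxic mean of COX8C lay at or below the filter level. COX8C passed the filter mainly on hypoxic arrays, where it was higher, so its calls as higher add no support. The 25th percentile of log2 signal was 4.57 to 4.63 on normoxic vehicle arrays and 4.67 to 4.90 on the others. The part of this shift at the dim end in these calls was not tested. The count of 6 depended on the scaling: with BB2-282 it was 2 after median centring and 2 after quantile normalization, where COX4I2, COX7A1, COX8C and COXFA4L2 lost their calls (adjusted p = 0.0531 to 0.193). With BB2-125 it was 5 and 4, and with BB2-162 it was 5 and 5. Some of these calls also ended when 1 array was left out. COX7A2L and COX4I2 were above normoxic vehicle in all 4 hypoxic groups and were not called for any compound against hypoxic vehicle. SDHC and NDUFS1 were below normoxic vehicle in all 4 hypoxic groups. The call of COX4I2 with BB2-282 (0.32 ± 0.13, adjusted p = 0.0462) ended in 5 of the other settings and without any of several single arrays (adjusted p up to 0.234). In none of the 10 comparisons were NDUFA1, NDUFB1, NDUFB4 or ATP5MGL called, 4 genes chosen for mention after their values were seen. Without BB2-162 replicate 1, NDUFB4 was called between BB2-162 and normoxic vehicle (0.38, adjusted p = 0.0289).

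Other genes of the pathway are given by lists. In the lists below, counts in hypoxia stand against 29.4% of all genes that fell and 28.2% that rose. Factors that assemble complex I fell in hypoxia in 11 of 16 cases and rose in 2, with ACAD9 (-2.27 ± 0.14), NDUFAF3 (-1.53 ± 0.11) and FOXRED1 (-1.86 ± 0.14) of lowest p. Those of complexes II and III fell in 7 of 9, led by BCS1L (-1.62 ± 0.12), which inserts the iron-sulfur protein of complex III. Those of complex IV fell in 10 of 20, among them the copper chaperone SCO1 (-1.23 ± 0.11), and those of ATP synthase in 4 of 4, with ATPAF2 (-1.22 ± 0.12) lowest. Of 18 genes for cytochrome c, ubiquinone synthesis and electron transfer flavoprotein, 15 fell, led by COQ3 (-1.47 ± 0.11) and COQ2 (-1.32 ± 0.10). The 13 mitochondrially encoded subunits were not analysed here.

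Against hypoxic vehicle, 13.3% of all genes rose and 15% fell with BB2-125, 15.7% rose and 20.4% fell with BB2-162, and 5.65% rose and 7.94% fell with BB2-282. With BB2-125 the same lists gave 7 higher and 1 lower of 16, 5 and 1 of 9, 8 and 0 of 20, 1 and 0 of 4, and 8 and 0 of 18. UQCC2, an assembly factor of complex III, rose by 1.37 ± 0.14 and SDHAF3, of complex II, by 1.14 ± 0.12. With BB2-162 they gave 3 higher and 5 lower of 16, 3 and 1 of 9, 4 and 5 of 20, 0 and 0 of 4, and 2 and 7 of 18, and TIMMDC1, of complex I, fell by 1.49 ± 0.24. With BB2-282 they gave 7, 2, 5, 2 and 4 lower and 0 higher in each, and NDUFAF4 fell by 1.32 ± 0.13. CYCS, the gene of cytochrome c itself, rose by 0.93 ± 0.10 with BB2-125 and by 1.09 ± 0.10 with BB2-162, and fell by 1.25 ± 0.10 with BB2-282, each against hypoxic vehicle.

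Among 15 regulators of mitochondrial transcription and biogenesis, 7 rose and 3 fell in hypoxia, where 28.2% and 29.4% of all genes did. TFAM, which packages and transcribes mitochondrial DNA, fell by 1.11 ± 0.09, PPARGC1A, a coactivator of respiratory genes, fell by 1.98 ± 0.17, and POLRMT, the mitochondrial RNA polymerase, rose by 1.06 ± 0.11. Against hypoxic vehicle PPARGC1A fell further with BB2-125 (-1.13 ± 0.17) and with BB2-282 (-1.48 ± 0.17), and TFAM rose with BB2-162 (0.60 ± 0.09). Over the list 3 rose and 4 fell with BB2-125, 4 rose and 1 fell with BB2-162, and 3 fell with BB2-282, to be read against the shares of all genes given above for each compound. Of 8 genes through which HIF is known to alter respiration, 6 rose and 1 fell in hypoxia, with PDK1 (2.61 ± 0.14), the kinase that shuts off pyruvate dehydrogenase, MXI1 (1.90 ± 0.10) and BNIP3 (1.35 ± 0.10) of lowest p. With BB2-125 2 rose and with BB2-162 3 rose. BNIP3 was the single fall with BB2-162 (-0.64 ± 0.10) and with BB2-282 (-0.41 ± 0.10). These counts too are to be read against the shares of all genes given above for each compound.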

How the data were processed

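RNA of 15 cultures of A549 cells, 5 groups of 3, was hybridised to 1 expression array each. The authors deposited 1 normalized intensity per probe set and array on a linear scale, made by RMA per the submitters' processing notes; the software, its version and the probe annotation build are not given in the sources used here. There are no read counts, so the number of arrays limits the precision. Cultures are named biological replicates in the labels, with nothing further, so p-values reflect only how these samples vary, which may be technical. No 2 arrays held identical values, and every sample column was assigned from the labels.

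Of 28869 probe sets, 19310 had 1 symbol in the platform's table, 1752 had several and 7807 had none; only the first kind was named, and symbols were updated through Entrez numbers for 19279 of them. For a gene with several probe sets the one with the highest mean was used, which left 18377 genes. Genes above the 25th percentile of the array on at least 3 arrays were tested, 16005 in all. Log2 intensities were fitted with limma 3.58.1 in R 4.3.3 as 5 group means over 15 arrays (10 residual and 7.96 prior degrees of freedom). Benjamini-Hochberg adjustment was made separately for each of 10 comparisons, with calls at an adjusted p under 0.05. The fit was tested on simulated data.

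The genes, the lists and the tests were chosen with earlier results of these data known. Named were SDHC, NDUFB5, COX5B, the isoform families of complex IV and ATP5IF1, up to 4 called genes of lowest p in each direction, per complex in hypoxia and over all complexes elsewhere, and up to 3 per list. Other genes named, among them NDUFS7, UQCRC2 and the promoters of NDUFA12 and NDUFB7, were chosen after their values were seen, as were values of named genes in further comparisons. Cultures of the same replicate number deviated together, with every correlation over 0.1, in 1 of 10 pairs of groups. That pair was BB2-125 with hypoxic vehicle (0.189 to 0.328). Over all pairs the correlations ran from -0.429 to 0.58, so the numbers were not taken to pair the cultures. The alternatives were other filters on dim probe sets, median centring, quantile normalization, other probe sets, the replicate number as a block, an intensity trend, fits of 2 groups alone, adjustment over all 10 comparisons and leaving out each array; the other probe set of a gene with 2 and a count over subunit genes alone were added after seeing the data.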

Additional observations from a re-analysis of the deposited data

Results flagged for a closer look

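A set of 12 genes was picked because each was called higher with BB2-125 and lower with BB2-282 against hypoxic vehicle. The difference between the compounds follows from these 2 calls, so its own call by limma adds no support. The 12 genes are given here with that difference. In complex I these were NDUFA2 (1.75, BB2-125 minus BB2-282), NDUFB3 (1.57), NDUFB6 (1.28), NDUFAB1 (1.25), NDUFB10 (1.24), NDUFS3 (1.22), NDUFA12 (1.16), NDUFA3 (1.04) and NDUFB7 (0.66). NDUFS3 encodes a core iron-sulfur protein subunit, and the others encode accessory subunits. COX5B of complex IV differed by 1.73, and ATP5MC1 and ATP5F1B of ATP synthase by 1.62 and 0.78. The opposite pattern was seen in 0 of the 86 genes and in 1.64% of all genes tested. It could not occur among the 86, since none was called lower with BB2-125 or higher with BB2-282 against hypoxic vehicle. NDUFA3 also rose with BB2-162 (0.47 ± 0.15, adjusted p = 0.0185) and fell with BB2-282 (-0.51 ± 0.15, adjusted p = 0.0262). The difference between these compounds, 0.98 ± 0.15 (adjusted p = 4e-05), likewise follows from the 2 calls. The causes of these differences were not tested.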

How the results depend on the processing

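No called direction reversed under any alternative; the median of BB2-162 minus hypoxic vehicle, near 0, ran from -0.1239 to 0.0266 when 1 array was left out. For named genes, 2267 values under other settings stayed on their side of the threshold, 61 lost and 32 gained a call; with 1 array left out the numbers were 1273, 126 and 29. After median centring 5 genes rose with BB2-162 against hypoxic vehicle, 5 were higher with BB2-282 than in normoxic vehicle, and the median of BB2-162 minus normoxic vehicle was -0.2872, against -0.1761 without it, where the median of all genes moved by -0.111. After quantile normalization that median was -0.0711, 6 genes were higher with BB2-282 than in normoxic vehicle, 1 rose with BB2-282 against hypoxic vehicle, and 25 were higher with BB2-125 than with BB2-162 (median 0.2118). With the replicate block 1 gene rose with BB2-282 against hypoxic vehicle, against 0 without the block, and no other count of genes moved by over 1.5 times; the calls of UQCRH, UQCRQ and COX6C in hypoxia ended among others. Adjustment over all 10 comparisons gave 59 higher for BB2-125 minus BB2-282, 1 riser with BB2-282 against hypoxic vehicle, and 43 higher and 2 lower for BB2-125 minus BB2-162. In fits of the 2 groups alone, which have fewer arrays, BB2-162 minus hypoxic vehicle gave 3 higher, 7 lower and 3494 calls over all genes (5780 with all arrays), BB2-125 minus BB2-162 gave 23 higher, 0 lower and 2582 calls (4182), BB2-125 minus BB2-282 gave 1 lower and BB2-162 minus BB2-282 gave 4 lower. Leaving out 1 array gave 4 to 16 higher in hypoxia, 17 to 28 for BB2-125 and 4 to 9 for BB2-282 against normoxic vehicle. Against hypoxic vehicle it gave 13 to 29 higher and 0 to 1 lower for BB2-125 (1 without hypoxic vehicle replicate 3), 3 to 12 higher and 9 to 17 lower for BB2-162, and 0 to 2 higher for BB2-282 (2 without hypoxic vehicle replicate 3), with 1222 to 2393 calls over all genes. It gave 19 to 46 higher, 0 to 2 lower and 2645 to 6208 calls for BB2-125 minus BB2-162, and 21 to 45 higher and 3 to 7 lower for BB2-162 minus BB2-282. Where no cause is named, the cause was not tested.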
